A study of Mus musculus with 4 samples.

Results

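The p200 genes, also called the PYHIN family, were followed in CD8+ T cells from mouse lymph nodes draining a melanoma. The 8 members described, Ifi203, Ifi206, Ifi208, Ifi209, Ifi213, Ifi214, Mndal and Aim2, were taken by symbol from the 32285 genes of the deposited single-cell tables, and all 8 passed the filter on low counts. Mice carried B16F10GP tumors, the B16F10 melanoma line with a viral glycoprotein added by lentivirus, in all 4 groups. CD8+ PD-1+ CD44+ cells were sorted from the tumor-draining nodes of 4 groups of 5 female C57BL/6 mice, bought at 6 weeks of age. The groups were untreated mice (Control), mice given radiation to 1 tumor (RT), mice given the antibody anti-PD-L1, and mice given both (RT + anti-PD-L1, the combination), with nodes taken on day 7 after treatment in the treated groups. The sources used here give more than 1 radiation schedule and do not say which was used for these libraries. The 5 mice of a group were tagged with hashtag antibodies and pooled into 1 library, so treatment and library cannot be told apart. Naive cells of untreated mice were also sorted as controls according to the methods, and whether any entered these libraries is not given.

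PYHIN proteins usually join a pyrin domain, which binds other pyrin domains, to a HIN domain that binds DNA. Aim2 is the sensor of cytosolic DNA that recruits the adaptor Pycard (ASC) and caspase-1 into an inflammasome. Its relatives are known as interferon-inducible genes, several of them nuclear proteins with roles in growth and transcription, and the mouse carries many more of them than humans do. Individual functions are well established for few of the mouse genes, so most members are described here by position and level alone.

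The members lie in 1 cluster of genes on mouse chromosome 1. In the GENCODE M21 annotation of mm10 they span chr1:173350879-173942672, 592 kb that hold 11 protein-coding genes, all of the p200 family. Aim2 (chr1:173350879-173466040, plus strand) sits at one end, followed by Ifi206 (chr1:173468485-173491041, minus), Ifi214 (chr1:173519717-173535957, minus), Ifi213 (chr1:173566283-173599274, minus), Ifi209 (chr1:173630917-173647928, plus), Ifi208 (chr1:173673675-173698395, plus), Mndal (chr1:173849126-173942491, minus) and Ifi203 (chr1:173920407-173942672, minus). The annotated span of Mndal takes in Ifi211 and Ifi203 on the same strand. Of the 50-base stretches in its annotated transcripts, Ifi209 shared 33.4% with another p200 gene (nearest Ifi214), Ifi208 20.8%, Mndal 17.7%, Ifi206 15.8%, Ifi213 15.6%, Ifi214 14.5% and Ifi203 12.2%. Aim2 shared 0%. These shares are over whole annotated transcripts, and the part of them that the reads cover was not examined. Reads from the shared stretches could be assigned to the wrong member or dropped, so the split among the 7 genes other than Aim2 is less certain than their joint level.

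The same 7 genes also share a promoter element that Aim2 lacks in the window examined. The RefSeq promoter table (GRCm38.p6, the same coordinates as mm10) gave windows of 250 bases before to 50 bases after the start site for all 8 members, with 2 alternative starts each for Ifi203 and Mndal. Stretches of 60 bases around the element are shown because the element recurs in all 7, written 5′ to 3′ on the strand of the gene, with the 12 bases of the element in capitals.
Ifi203: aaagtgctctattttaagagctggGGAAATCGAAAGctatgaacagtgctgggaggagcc
Mndal: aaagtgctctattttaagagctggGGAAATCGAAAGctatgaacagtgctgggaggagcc
Ifi206: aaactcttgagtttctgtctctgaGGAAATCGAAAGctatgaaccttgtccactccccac
Ifi208: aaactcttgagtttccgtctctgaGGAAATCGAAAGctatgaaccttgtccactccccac
Ifi213: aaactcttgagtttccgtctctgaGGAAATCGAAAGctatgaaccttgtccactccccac
Ifi214: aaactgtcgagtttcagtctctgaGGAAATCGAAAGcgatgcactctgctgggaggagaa
Ifi209: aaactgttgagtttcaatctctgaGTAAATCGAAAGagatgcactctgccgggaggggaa
Aim2: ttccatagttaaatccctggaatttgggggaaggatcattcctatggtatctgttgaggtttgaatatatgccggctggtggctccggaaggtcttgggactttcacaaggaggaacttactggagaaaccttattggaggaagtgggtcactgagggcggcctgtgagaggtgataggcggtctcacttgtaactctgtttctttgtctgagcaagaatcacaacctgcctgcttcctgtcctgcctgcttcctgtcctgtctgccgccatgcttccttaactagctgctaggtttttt

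These stretches lie at chr1:173942493-173942552 for Ifi203, chr1:173880189-173880248 for Mndal, chr1:173491324-173491383 for Ifi206, chr1:173673582-173673641 for Ifi208, chr1:173599311-173599370 for Ifi213, chr1:173536002-173536061 for Ifi214 and chr1:173630755-173630814 for Ifi209, and the line for Aim2 is its whole window, chr1:173420354-173420653, which holds no match. Ifi203 and Mndal carry the same 60 bases, and so do Ifi208 and Ifi213. The Ifi203 start used here lies next to the 5′ end of the GENCODE span of Mndal, and RefSeq places the starts of Mndal elsewhere. The RefSeq start of Aim2, chr1:173420604, lies inside its GENCODE span, which begins at chr1:173350879. No window at that outer end was searched. The element read GGAAATCGAAAG in 6 members and differed in Ifi209 by G2T, counted from 1 at its 5′ end. It began between 80 bases (Ifi209 and Ifi214) and 36 bases (Ifi203) before the start. The second windows of Ifi203 and Mndal, at their other starts, do not hold the element. The 9-base core AAATCGAAA of the element, searched on both strands, was in a window of 7 of 8 members and in 0.125% of the 32851 promoter windows in the table. GAAANNGAAA, the core of the interferon-stimulated response element, overlaps that core and was found in 6 of 8 members, all but Ifi209 and Aim2, against 3.44% of all windows. TTCNNNGAA, the gamma-activated site, was in 0 of 8 members and in 8.30% of all windows. Among p200 genes that are not members, Ifi207 also held the 9-base core, and Ifi205, Ifi207 and Ifi211 held GAAANNGAAA. Ifi202b held neither. The motifs are thus not particular to the 7 genes, and Ifi205 and Ifi207 had too few UMIs in the compared cells to pass the filter. The 9-base core was chosen after the sequences were read, and a match is a description of letters, not evidence of binding.

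Of 47820 deposited barcodes, 43971 passed the filters and 39192 carried a single hashtag. After clusters of gamma delta T cells and dendritic cells were left out, 37722 cells remained, 135 to 4644 per mouse, with group medians of 6267 to 6996 UMIs (unique molecules) per cell. Levels are given in CPM, the UMIs of a gene scaled to a common total per mouse. Cd8b1 was at 1138 to 1453 CPM and Cd3e at 1000.1 to 1207 CPM in the 20 mice, against 0.198 to 1.62 CPM for Cd4, 0 to 1.64 CPM for the B cell gene Cd79a and 0 to 10.8 CPM for the myeloid gene Lyz2. The sorted markers Pdcd1 and Cd44 were low, at 14.0 to 65.8 and 48.5 to 86.6 CPM. Counts were summed over the cells of each mouse, and the mouse is the replicate throughout. The libraries shared 158 to 234 barcodes per pair, 1.44 to 1.94% of the smaller library.

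In all, 7 members were higher after the combination than in untreated mice, and Aim2 was not. Ifi203 stood at 170.2, 188, 194, 157 and 204 CPM in the 5 Control mice and at 195, 368, 393, 263 and 281 CPM in combination mice 1 to 5. Combination mice 2 and 3 were the highest, mice 4 and 5 stood between, and mouse 1 lay within the Control range. Mndal was at 147, 168, 177, 129.6 and 168 CPM in the 5 Control mice and at 168, 294, 316, 216 and 228 CPM in combination mice 1 to 5. Ifi209 was at 139.6, 154, 144, 129 and 182 CPM in the 5 Control mice and at 176, 313, 335, 222 and 211 CPM in combination mice 1 to 5. Both genes again had mice 2 and 3 at the top, with 4 of 5 combination mice above every Control mouse. Ifi208 was at 112, 113, 103, 102 and 145 CPM in the 5 Control mice and at 119.7, 315, 308, 208 and 199.9 CPM in combination mice 1 to 5. For Ifi213 the values were 90.6, 90.5, 82.2, 75.5 and 123 CPM in the 5 Control mice and 103, 215, 246, 159 and 172 CPM in combination mice 1 to 5. In these genes every combination mouse but the first exceeded the highest Control mouse, which was mouse 5 for both. Ifi206 stood at 59.1, 61.0, 55.2, 48.9 and 73.8 CPM in the 5 Control mice and at 62.3, 136, 140.5, 98.0 and 96.8 CPM in combination mice 1 to 5. For Ifi214 the values were 58.1, 59.7, 59.8, 55.9 and 73.0 CPM in the 5 Control mice and 68.6, 124, 136, 84.5 and 89.6 CPM in combination mice 1 to 5. Here too mouse 1 alone overlapped the Control mice. Combination mouse 1 gave 462 cells, the fewest of its group, and its levels of the 7 genes were 1.04 to 1.18 times the Control means, whereas those of mouse 2 were 1.86 to 2.74 times. All 5 combination mice were in 1 library and so share its free RNA.

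**Figure D1:**
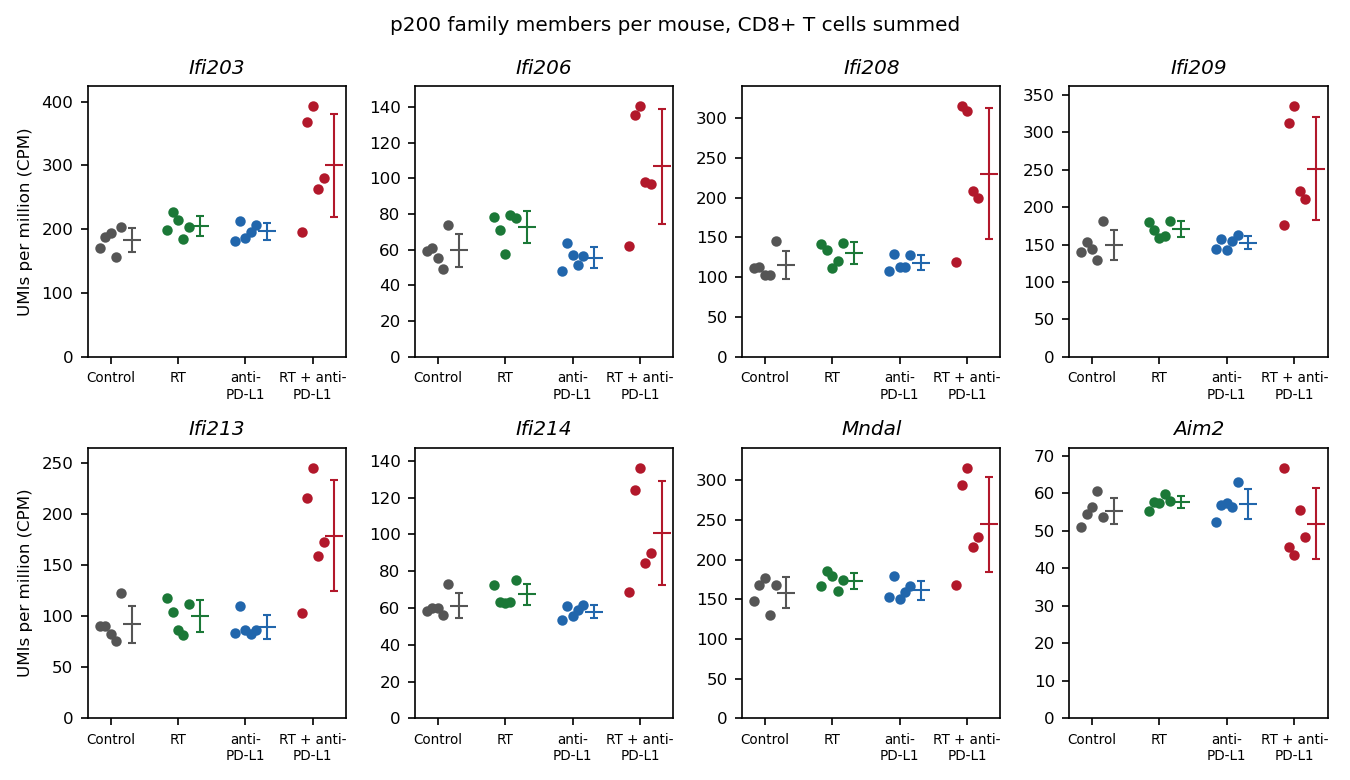
Level of each p200 member in CPM (y axis from 0) per treatment group (x axis); each point is 1 mouse, in hashtag order from left to right, and the bar beside the points is the mean with the SD (n = 5). Combination mice 2 to 5 stand above the Control mice for the 7 genes other than Aim2, and combination mouse 1 lies within the Control range or close to it.

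In the edgeR quasi-likelihood fit over all 20 mice, with Benjamini-Hochberg adjustment over 11982 genes, 7 of 8 members were called higher in RT + anti-PD-L1 than in Control, against 9.21% of all genes called in either direction. The median log2 change of the 8 members was 0.77, and that of all genes tested was -0.00488. Ifi208 changed most, from 115 ± 17.5 CPM in Control to 230.3 ± 82.1 CPM (SD, n = 5), a log2 change of 1.04 ± 0.17 (SE) or 2.06-fold, with an adjusted p of 0.00156. Ifi213 went from 92.3 ± 18.1 to 179 ± 54.7 CPM (0.99 ± 0.17, adjusted p = 0.00166), and Ifi206 from 59.6 ± 9.16 to 107 ± 32.1 CPM (0.88 ± 0.16, adjusted p = 0.00199). The log2 changes of Ifi209, Ifi214, Ifi203 and Mndal were 0.78 ± 0.13, 0.76 ± 0.13, 0.75 ± 0.13 and 0.66 ± 0.12, with adjusted p-values of 0.00166, 0.00187, 0.00176 and 0.00216. All 7 kept their call in each of the 28 alternative fits, which included leaving out each mouse in turn. No source says that the mice were treated on separate occasions, so the p-values cover the spread between mice of these 4 libraries. In sums of this kind, more cells with the transcript and more transcript per cell cannot be told apart.

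Aim2 was the exception. It was at 51.0, 54.5, 56.3, 60.6 and 53.6 CPM in the Control mice, 55.2, 57.7, 57.3, 59.7 and 57.9 CPM after RT and 52.2, 56.7, 57.3, 56.2 and 63.0 CPM after anti-PD-L1. In combination mice 1 to 5 it was at 66.8, 45.5, 43.6, 55.4 and 48.2 CPM, so the groups overlapped, and mice 2 and 3, the highest for the other members, had the lowest Aim2 levels of the 20 mice. Its log2 change from Control was -0.10 ± 0.07 (adjusted p = 0.436), with a 95% interval of -0.25 to 0.04. That interval lies below those of the other members, the lowest of which began at 0.42 (Mndal). Against RT and against anti-PD-L1 the change of Aim2 was -0.17 ± 0.08 (adjusted p = 0.282) and -0.17 ± 0.07 (adjusted p = 0.348). Without combination mouse 1, Aim2 was called lower in both of these comparisons, which brought the members called to 8 of 8 in each.

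Radiation or antibody alone left no member past the threshold. After RT the 7 genes were on average slightly above Control, with log2 changes of 0.14 to 0.25, and 0 of 8 members were called (edgeR adjusted p of 0.639 or more; 0 of 8 at an unadjusted p under 0.05, and 0 by DESeq2), where 0.0918% of all genes were. After anti-PD-L1 the changes of the 7 genes ran from -0.10 to 0.11, with 0 of 8 called by edgeR (0 of 8 at an unadjusted p under 0.05, and 0 by DESeq2) and 0.517% of all genes called. Ifi206, for example, ranged over 57.8 to 79.6 CPM in RT mice and 48.3 to 63.6 CPM in anti-PD-L1 mice, and Ifi203 over 184 to 226 and 181 to 213 CPM. Ifi208 lay at 112 to 143 CPM after RT and 108 to 129 CPM after anti-PD-L1, and Ifi213 at 81.3 to 117 and 82.4 to 110.1 CPM. All of these ranges overlapped that of the Control mice. For Ifi209 the ranges were 158 to 182 and 143 to 163 CPM, for Ifi214 62.7 to 75.0 and 53.4 to 61.5 CPM and for Mndal 161 to 185 and 149.9 to 179 CPM. The widest 95% interval bounds for the 7 genes were -0.20 and 0.57 for RT and -0.41 and 0.38 for anti-PD-L1, so changes of those sizes are still allowed with 5 mice a group.

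The combination also exceeded each treatment given alone. Against RT, 7 of 8 members were called higher (3.06% of all genes were called), with log2 changes from 0.52 ± 0.12 for Mndal (adjusted p = 0.0185) to 0.86 ± 0.18 for Ifi208 (adjusted p = 0.00805). This comparison was the least secure, since without combination mouse 2 or mouse 3 only 3 members passed, and without RT mouse 5 only 4. By limma-trend 4 passed. Against anti-PD-L1, 7 of 8 were called higher (2.36% of all genes), from 0.63 ± 0.12 for Mndal (adjusted p = 0.00391) to 1.03 ± 0.17 for Ifi213 (adjusted p = 0.00133). These comparisons share the combination mice with the comparison against Control and are not independent of it.

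An interaction term on the log2 scale asked whether RT and anti-PD-L1 given together did more than their separate changes added up. The excess was positive for all 7 genes, from 0.46 ± 0.18 for Ifi203 to 0.89 ± 0.24 for Ifi213, and -0.23 ± 0.11 for Aim2. By edgeR 0 of 8 members passed the adjustment, with adjusted p-values of 0.0794 (Ifi213), 0.0860 (Ifi214) and 0.132 (Ifi208) at the lower end, although 8 of 8 had an unadjusted p under 0.05, and DESeq2 also called 0. Of all genes 0.901% were called. Combination mouse 1 decided this result, as leaving it out let 7 of 8 members pass, with excesses of 0.57 to 1.02 and adjusted p-values of 0.00652 to 0.0384. Without combination mouse 4, 1 of 8 passed.

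**Figure D2:**
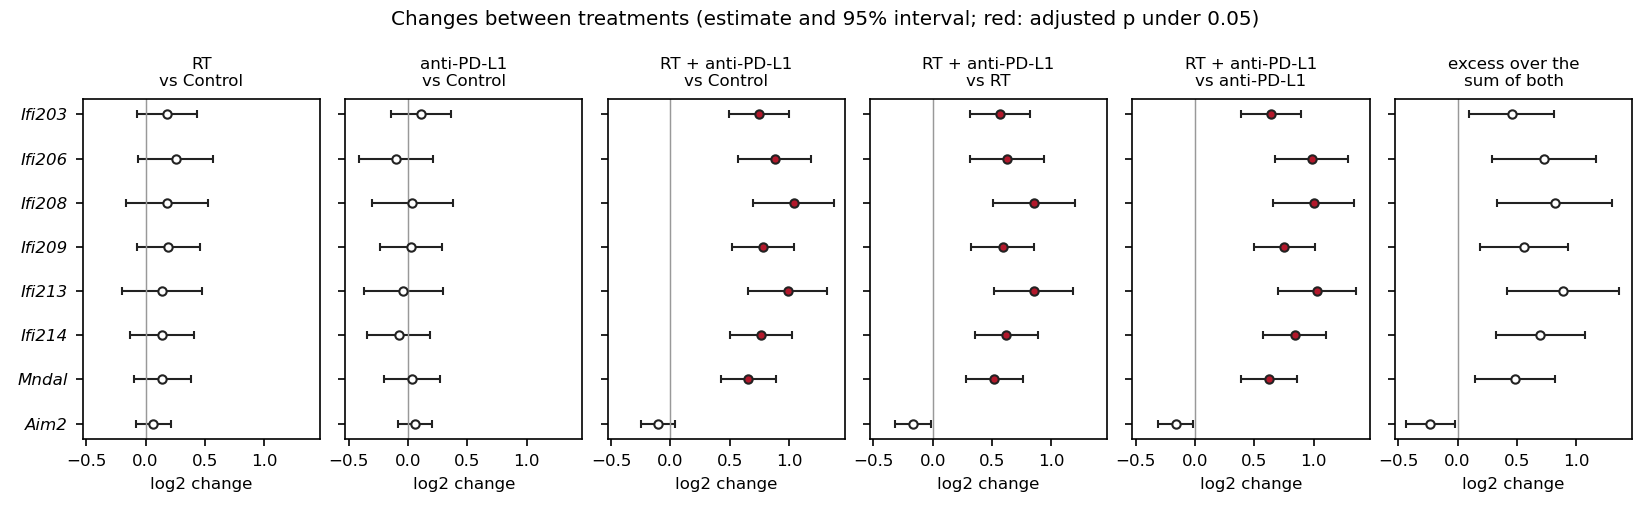
Log2 change of each member (y axis) for 5 pairs of groups and for the interaction of RT with anti-PD-L1 (panels; x axis, log2 change with a 95% interval, edgeR fit on 20 mice). Filled red points have an adjusted p under 0.05, which holds for 7 of 8 members in the 3 comparisons of the combination with another group and for none in the other panels.

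The share of cells with a UMI of a member was read as well. At a fixed depth this share follows the mean level, so it is not a separate view of the change. It does not tell more expressing cells from more transcript per cell. Each cell was thinned to 3000 UMIs so that shares were read at equal depth, which left out 3548 shallower cells. A UMI of at least 3 members was found in 37.1 ± 5.57% of cells in Control mice, 40.0 ± 4.63% after RT, 37.4 ± 4.33% after anti-PD-L1 and 58.1 ± 12.1% after the combination (mean and SD over 5 mice). The highest Control mouse had 44.3%, and the combination mice ran from 40.5 to 72.8%, so the lowest of them fell in the Control range. For Ifi208 the share was 29.0 ± 2.85% in Control and 45.0 ± 11.7% after the combination, and for Ifi213 23.9 ± 3.73% and 39.0 ± 9.41%. For Aim2 it was 15.1 ± 0.893% and 14.4 ± 2.45%. With all UMIs of each cell the share with at least 3 members was 70.2% in Control and 81.7% after the combination. No cell type that should lack these genes was among the sorted cells, and the part of free RNA in these shares was not tested.

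To ask where in the T cell population the members were expressed, the cells were clustered without the members, the other p200 genes and the interferon gene lists. Of 10 T cell clusters, markers named cluster 1 naive-like (Igfbp4, Klf2, with the interferon-inducible Tgtp1 also among its leading genes), cluster 2 effector-like (Ccl5, Gzmk), cluster 3 cycling-like (Birc5, Rrm2) and cluster 4 progenitor exhausted-like (Nrn1, Cd200, with Tnfrsf4 and Gpm6b leading). The others are called by their leading genes, namely cluster 0 (Gm14085, H2-Oa), cluster 5 (Srm, Xcl1), cluster 6 (Gm26917, Kcnq1ot1, with a median of 1703 UMIs per cell), cluster 7 (Klra7, Klra6), cluster 8 (Rsad2, Ifit3b) and cluster 9 (Hdac9, Tubb2b). Clusters 1, 2 and 3 were named on 6 markers each among their 50 leading genes. Cluster 4 had only 3 markers of its list of 6, the fewest the naming rule allowed, so its name is the least secure. The levels by cluster are given without a test, as means over mice with at least 20 cells in the cluster. CPM is a share of the UMIs of the cells, and depth differed between clusters. Median UMIs per cell were 12441 in cluster 5, 16068 in the cycling-like and 5032.5 in the naive-like cells. The order of clusters in CPM is therefore not their order in transcripts per cell, which was not tested.

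In untreated mice the 8 members summed were lowest in cluster 5, the Srm and Xcl1 cluster, at 359.6 ± 46.4 CPM (SD, n = 5 mice). They stood at 608 ± 77.8 CPM in the cycling-like cells, 720.0 ± 76.5 in cluster 7 (n = 4), 830.0 ± 127 in the naive-like cells and 853 ± 99.8 in the progenitor exhausted-like cells. The effector-like cells had 1061 ± 86.4 CPM, cluster 9 1069.9 ± 106 (n = 3), cluster 6 1243 ± 158 and cluster 0 1273 ± 121. Cluster 5 was set apart from all the others by more than the SDs, whereas the naive-like and progenitor exhausted-like cells, the effector-like cells and cluster 9, and clusters 6 and 0 did not differ beyond their spread. Aim2 followed another order, from 29.5 ± 5.96 CPM in cluster 7 and 38.5 ± 3.43 in cluster 5 to 119.7 ± 28.4 in cluster 6, with 85.9 to 128 CPM in the 3 mice of cluster 9.

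Cluster 8, led by interferon-inducible genes, came almost entirely from the combination library, so its levels are set here beside other clusters of the same mice. It made up 9.21% of the combination cells and at most 0.353% of those of another group, and within the combination it took 11.3% and 13.8% of the cells of mice 2 and 3 but 0.216%, 0.922% and 0.704% of mice 1, 4 and 5. Some interferon-inducible genes outside the lists, such as Gbp10, remained in the clustering, so this cluster was not drawn independently of the interferon genes that move with the members. In combination mice 2 and 3, Ifi203 was at 749 and 782 CPM in cluster 8 and 532 and 537 CPM in the effector-like cells. Ifi208 was at 732 and 664 CPM in cluster 8 and 382 and 404 CPM in the effector-like cells, and Ifi209 at 705 and 644 CPM against 402 and 449 CPM. These genes were thus higher in cluster 8 in both mice, as they were against cluster 6, where Ifi203 stood at 459 and 486 CPM. Ifi213 and Mndal were not set apart from cluster 6 in this way. Ifi213 was at 461 and 422 CPM in cluster 8 and 471 and 520.5 CPM in cluster 6, and Mndal at 564 and 549 CPM against 563 and 502 CPM. Aim2 was at 38.6 and 40.9 CPM in cluster 8 and 46.6 and 50.7 CPM in the effector-like cells. With cluster 8 left out, an alternative added after the data were seen, the same 7 members were called in combination vs Control, with log2 changes of 0.58 to 0.91. Cluster 8 held 935 cells, whereas the cluster with Rsad2 among its leading genes held 1649 at Leiden resolution 1. It held 3159 when all variable genes were used. Leaving out cluster 8 thus need not remove all interferon-high cells.

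**Figure D3:**
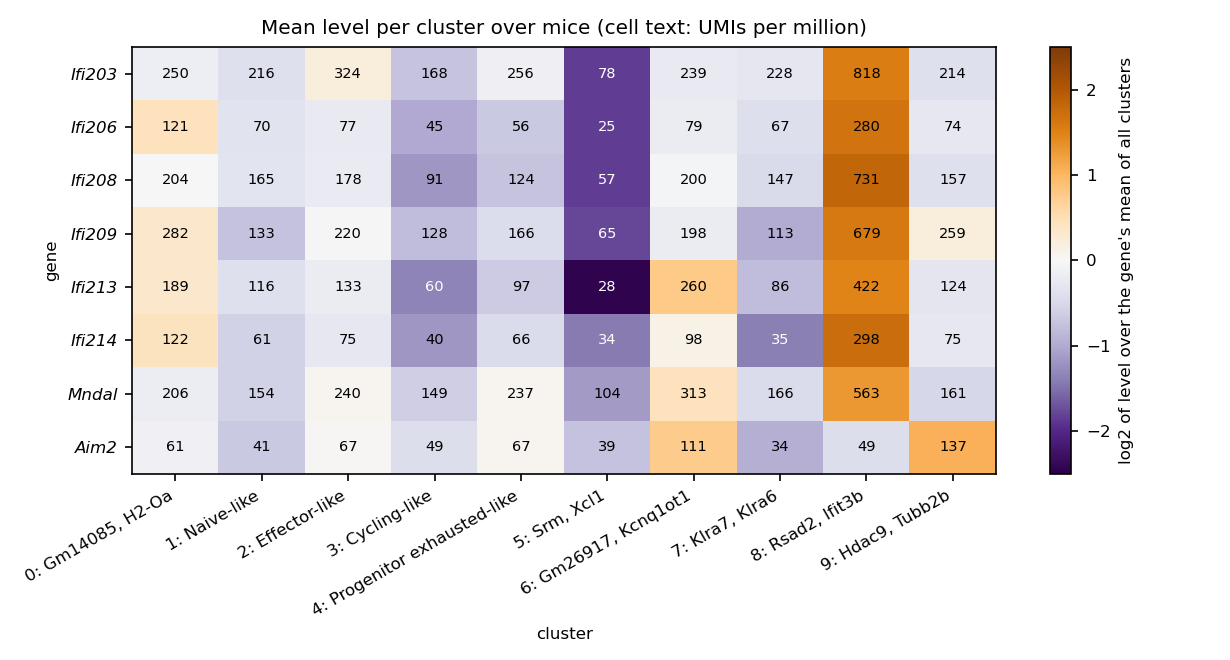
Mean level of each member (rows) in the 10 T cell clusters (columns) over the mice of all groups with at least 20 cells in the cluster; the number in a cell is CPM and the color its log2 ratio to the gene's mean over clusters. With the treatments pooled in this way, the 7 genes other than Aim2 are lowest in cluster 5 and have their highest means in cluster 8 (3 mice, 2 of them given the combination), and Aim2 has its highest mean in cluster 9.

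Since the makeup of the population differed between groups, combination and Control were also compared within each cluster, by the same fit on sums per mouse and cluster. In 8 clusters enough mice had 20 or more cells (5 against 5 mice, and 4 against 4 in cluster 7). Members called higher numbered 7 of 8 in cluster 0 (3.61% of all genes tested there were called), 7 in the naive-like (2.91%), 7 in the effector-like (4.15%), 7 in the cycling-like (2.41%) and 7 in the progenitor exhausted-like cells (1.34%). In cluster 5 the count was 4 of 8 (1.27%), in cluster 6 it was 5 of 8 (1.94%) and in cluster 7 it was 7 of 8 (2.04%). Ifi208, Ifi209, Ifi213 and Ifi214 passed in all 8 clusters, and every one of the 7 genes had a positive log2 change in all 8. Ifi208, for instance, changed by 0.68 ± 0.10 in cluster 0, 0.86 ± 0.12 in the naive-like, 1.15 ± 0.20 in the effector-like, 0.84 ± 0.15 in the cycling-like and 1.06 ± 0.17 in the progenitor exhausted-like cells. Ifi214 ran from 0.41 ± 0.08 in cluster 0 to 1.86 ± 0.31 in cluster 7. Differences in size between clusters were not tested.

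The members that missed the threshold were Ifi203 (0.55 ± 0.17, adjusted p = 0.122), Ifi206 (0.93 ± 0.24, adjusted p = 0.0516) and Mndal (0.36 ± 0.11, adjusted p = 0.106) in cluster 5, and Ifi206 (0.82 ± 0.25, adjusted p = 0.0842) and Mndal (0.56 ± 0.16, adjusted p = 0.0572) in cluster 6 (edgeR). Aim2 was called in 0 of 8 clusters by edgeR, with log2 changes from -0.39 ± 0.23 in cluster 6 to 0.06 ± 0.12 in cluster 5, and its lowest adjusted p was 0.0639 in the cycling-like cells, where its change was -0.35 ± 0.10. Where clusters were drawn on all variable genes, interferon genes included, 40 of 80 pairs of member and cluster were called higher, against 51 of 64 here. The mice and libraries are the same in every cluster, so the 8 results are not independent.

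**Figure D4:**
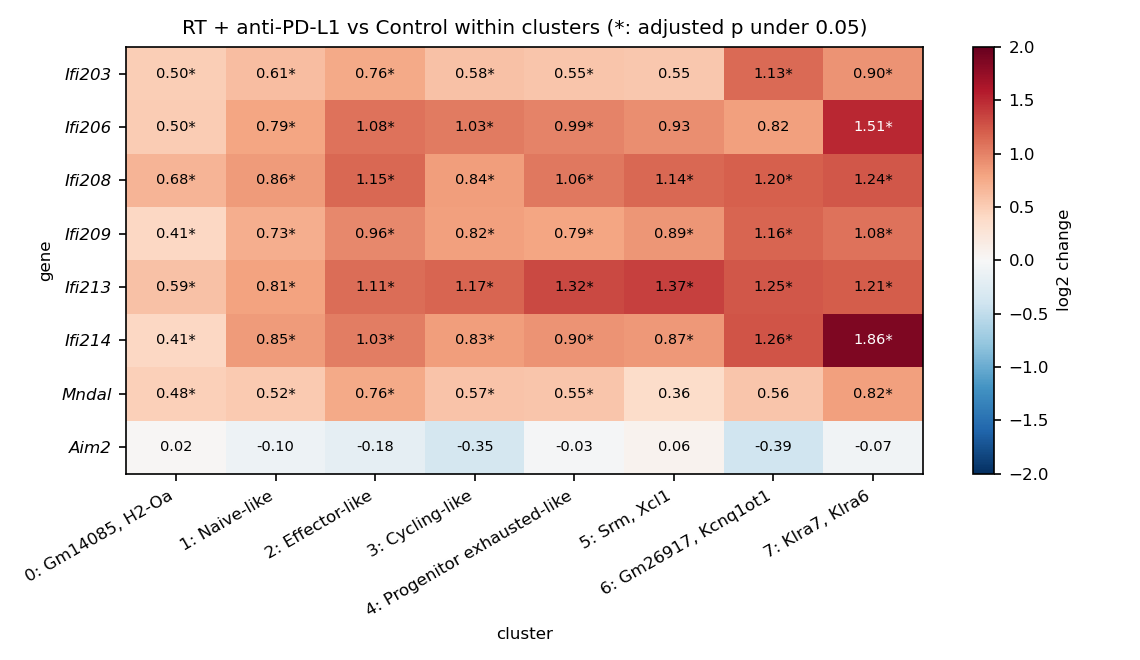
Log2 change of each member (rows) between RT + anti-PD-L1 and Control within each T cell cluster (columns), from the edgeR fit on sums per mouse and cluster; an asterisk marks an adjusted p under 0.05. Of the 64 values, 51 are marked, all of them positive, and the row of Aim2 holds none.

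Of the other p200 genes, 5 were listed in the files and 2 passed the filter, Ifi204, a sensor of cytosolic DNA that signals through STING, and Ifi211. Ifi204 was nearly absent outside the combination. It gave 4, 6, 1, 1 and 6 UMIs in the 5 Control mice and 4, 92, 659, 14 and 9 UMIs in combination mice 1 to 5, or 1.21, 6.63, 17.4, 1.26 and 1.33 CPM, so most of its transcripts came from mouse 3. Its log2 change was 4.80 ± 0.72 (edgeR adjusted p = 0.00104), with few counts behind the Control level. Ifi211 was at 3.32, 7.00, 7.83, 3.96 and 4.30 CPM in Control mice and 5.44, 14.9, 21.0, 4.95 and 6.78 CPM in combination mice, with a log2 change of 1.19 ± 0.36 (adjusted p = 0.0389). Of its 50-base stretches 72.8% are shared with other p200 genes and it lies within the span of Mndal on the same strand, so its level and call are uncertain. Only mice 2 and 3 stood above the Control range for Ifi211. Both genes were called higher here, but the count fell to 1 of 2 in 6 of the fits that left out 1 mouse (combination mouse 2 or 3, or Control mouse 1, 2, 4 or 5), and was 1 of 2 by DESeq2. Ifi205 and Ifi207 had 46 and 88 UMIs over all 20 mice and Ifi202b had 0, which allows at most 3 UMIs, and these 3 genes did not pass the filter in the compared cells. With the gamma delta and dendritic clusters kept, Ifi205 and Ifi207 had 752 and 301 UMIs, and 4 of the other p200 genes were called, Ifi205 and Ifi207 among them.

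Around the members, 18 genes of DNA sensing and the inflammasome were tested, and 5 were higher and 0 lower, with a median log2 change of 0.11 beside -0.00488 for all genes. Of all genes, 9.21% were called in this comparison of the combination with Control, 6.23% as higher. The genes that rose most were Mlkl, the effector of necroptosis (1.58 ± 0.41, adjusted p = 0.0182), Zbp1, a sensor of Z-form nucleic acid (1.35 ± 0.28, 0.00465) and Samhd1, a dNTP hydrolase (0.87 ± 0.18, 0.00429). The partners of Aim2 did not pass, as Pycard changed by -0.06 ± 0.05 (adjusted p = 0.552) and Casp1 by 0.59 ± 0.21 (adjusted p = 0.0844; edgeR). The count of 5 fell to 3 without Control mouse 1 or 2 and to 2 without combination mouse 2 or 3.

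Of 20 genes of interferon signaling, 10 were higher and 0 lower (6 without Control mouse 1 or 2 or without combination mouse 3; median log2 change 0.35). They included Usp18, which restrains the type I interferon receptor (2.66 ± 0.46, adjusted p = 0.00187), Irf7 (1.69 ± 0.33, 0.00326) and Stat2 (1.21 ± 0.19, 0.00133), with a smaller change of Irf9 (0.54 ± 0.10, 0.00231). For the receptor chains, Ifngr1 rose by 0.69 ± 0.20 (adjusted p = 0.0309), whereas the value for Ifnar1 was 0.08 ± 0.05 (adjusted p = 0.352). Of 103 interferon-stimulated genes of the wider list, 94 were higher and 1 lower (median 1.11), led by Ifitm3 (3.95 ± 0.68, 0.00176), Rsad2 (3.33 ± 0.59, 0.00201) and Oas2 (3.18 ± 0.48, 0.00104). Beside the counts of both lists, 9.21% of all genes were called, 6.23% as higher. The median change of the 8 members, 0.77, lay between these lists. Summed over the wider list, combination mice 1 to 5 had 20177, 32225, 39182, 25200.0 and 25155 CPM. The mice lowest and highest for the 8 members summed, mouse 1 and mouse 3, were also lowest and highest for the list. Single genes could differ, as Ifi208 was highest in mouse 2, and Aim2 was highest in mouse 1 and lowest in mouse 3. The lists were chosen with earlier results of these data known, and Usp18 and Zbp1 stand on more than 1 of them.

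Across the 10 T cell clusters, all treatments pooled, the 7 genes ran together. Their pairwise Pearson correlations of log2(CPM + 1) ranged from 0.84 to 0.98 over 21 pairs, and those of Aim2 with the 7 from 0.02 to 0.27. Cluster 8 carried part of that contrast, since without it, over 9 clusters, the ranges were 0.67 to 0.96 and 0.34 to 0.66. The clusters share mice, libraries and depth, so these are descriptions. The 7 genes also share transcript stretches with other p200 genes, and Aim2 shares none. What misassigned reads add to the correlations among the 7 was not tested. The genes most like each member, among those of at least 10 CPM, included Rtp4, Irf7, Dtx3l, Samd9l, Gbp9 and Tor3a of the interferon lists. They were Rtp4 (0.97), Rnf114 (0.97) and Irf7 (0.97) for Ifi203, Ifit1bl1 (0.97), Dtx3l (0.93) and Rtp4 (0.93) for Ifi206, Dtx3l (0.98), Ifit1bl1 (0.98) and Apobec1 (0.96) for Ifi208 and Trim12c (0.96), Usf1 (0.94) and Lgals8 (0.94) for Ifi209. For Ifi213 they were Trim34a (0.97), Lgals8 (0.97) and Samd9l (0.96), for Ifi214 Dnajc7 (0.96), Gbp9 (0.93) and Dtx3l (0.93) and for Mndal Tor3a (0.99), Trim30d (0.98) and Parp9 (0.97). The closest to Aim2 were Zfp668 (0.95), Cdk5rap1 (0.95) and Ndfip2 (0.94), none of them on the interferon lists used here. Without cluster 8, Dtx3l with Ifi214 fell to 0.84, Tor3a with Mndal stood at 0.98 and the 3 genes of Aim2 at 0.94 to 0.96. Each gene was picked as the highest of all those searched over 10 clusters, so high values alone are no evidence of a link. The share of interferon genes among those searched was not counted.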

How the data were processed

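Cells sorted from tumor-draining lymph nodes of 20 mice were profiled on the 10x platform in 4 libraries, 1 per treatment, each holding 5 mice told apart by hashtag antibodies. The authors made the deposited counts, raw UMI counts per gene and hashtag for each barcode, with Cell Ranger on the mm10 reference (the file headers name version 6.1.2). How reads shared by near-identical genes were counted is not given in the sources used here. Barcodes with 500 to 5000 genes, at most 40000 UMIs and at most 10% mitochondrial UMIs were kept. A barcode was given to a mouse where 1 hashtag stood above the valley of its own distribution, and barcodes with several hashtags, 7.47 to 8.85% per library, were dropped as doublets. Doublets of cells from 1 mouse cannot be seen this way. Cells were clustered in scanpy 1.11.5 (2000 variable genes, 20 components, 15 neighbors, Leiden resolution 0.6) without the members and the interferon lists, 139 genes in all. UMI counts summed per mouse were tested with edgeR 4.0.16 (R 4.3.3), using TMM scaling, filterByExpr, the 2-sided quasi-likelihood test and Benjamini-Hochberg adjustment over all genes tested, with a call at an adjusted p under 0.05. Intervals are the estimate ± 1.96 SE. DESeq2 1.42.0, limma-trend (limma 3.58.1), no filter on low counts, hashtag calls by HTODemux (Seurat 5.3.0), all clusters kept, a block on the hashtag number and leaving out each mouse were the alternatives, and 2 that left out a cluster were added after seeing the data. On simulated counts the fit recovered 99 of 100 genes changed by 0.5 and 100 of 100 changed by 1 (log2) between the combination and Control, with 11 false calls among 11902 genes. The simulation used the same biological coefficient of variation, 0.088, for all genes and groups and changed only genes above a set level. The real combination mice were more spread (Ifi208 at 230.3 ± 82.1 CPM, SD), so these figures do not give the recovery or false calls in the real data.

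The members, gene lists and tests were chosen with earlier results of these data known. All 8 members and the other p200 genes are named throughout, from each other list the 3 called genes with the largest change plus Pycard, Casp1, Irf9, Irf7, Ifnar1 and Ifngr1, and for each member the 3 genes of at least 10 CPM most correlated with it over clusters. A further gene under this rule is not reported here.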

Additional observations from a re-analysis of the deposited data

Results flagged for a closer look

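In 3 of 32 sets of 5 mice (each member in each group), 1 mouse lay far from the other 4 by Dixon's test with a critical value of 0.71, which chance gives in about 1 of 20 sets. The highest Control mouse stood at 145 CPM for Ifi208 and at 73.0 CPM for Ifi214, in both cases mouse 5, and the highest anti-PD-L1 mouse stood at 110.1 CPM for Ifi213. Leaving out these mice ended none of the calls of the 7 members against Control.

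For 6 of the named genes outside the family, the interaction of RT with anti-PD-L1 passed the edgeR adjustment over all genes. Of all genes 0.901% passed, and leaving out 1 mouse gave 26 to 253 genes. These 6 were named for the largest changes of the combination against Control in their lists. The interaction uses the same mice, so this choice favors a positive term and the calls are not separate evidence. The log2 interaction was 1.75 for Zbp1, 2.96 for Usp18, 2.21 for Irf7, 1.41 for Stat2, 4.63 for Rsad2 and 3.87 for Oas2. The same term was positive for the 7 members and passed the adjustment for none of them.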

How the results depend on the processing

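The 48 member values (8 genes, 6 comparisons) were recomputed under 28 alternatives each, and 1310 of the 1344 kept their direction and their side of the threshold. Against Control the 7 members passed in all 28, with log2 changes of 0.54 to 1.19 and a highest adjusted p of 0.0127 (edgeR, DESeq2 or limma). The 19 that lost a call were all in the combination against RT, where 4 members passed under limma-trend and 3 to 8 when 1 mouse was left out. For the interaction, leaving out 1 mouse gave 0 to 7 members. The 5 reversed values were uncalled ones of anti-PD-L1 against Control, which ranged over -0.00745 to 0.139 for Ifi208, -0.0149 to 0.109 for Ifi209, -0.125 to 0.0885 for Ifi213 and -0.0220 to 0.0631 for Mndal when 1 mouse was left out. Of the other p200 genes 1 passed under DESeq2, 1 under limma-trend, 1 with HTODemux calls, 4 with all clusters kept, and 1 to 2 when 1 mouse was left out. Limma-trend called 2 genes of DNA sensing and 5 of interferon signaling, against 2 to 6 and 6 to 12 when 1 mouse was left out. Within clusters, 50% of pairs of member and cluster passed where clusters were drawn on all variable genes, against 79.7% in the report. Of all genes, 1103 were called in the combination against Control, 453 under limma-trend, 596 with HTODemux calls and 534 to 1276 when 1 mouse was left out. The causes of these shifts were not tested.

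Mice of the same hashtag number were treated as unpaired. The mean correlation of deviations among mice of 1 number lay between -0.000287 and 0.0803, with single pairs from -0.117 to 0.198. It was not compared with that of mice of different numbers, so it does not settle whether the numbers pair the mice. With the number as a replicate block, members called were 7 against Control, 7 against RT, 7 against anti-PD-L1 and 0 in the other 3 tests, and 918 of all genes were called against Control.

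Depth differs between mice, and RT mouse 4 rests on 135 cells. Each treatment is 1 library, and their effects cannot be told apart.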
